A study of Rattus norvegicus with 4 samples.

Results

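The members described here are all pairs of 10 kb bins on the 20 numbered chromosomes that lie between 10 kb and 2 Mb apart, taken from 4 raw Hi-C contact matrices of rat Schwann cells. Bins entered only if their cis contacts, those within a chromosome, reached 0.25 of the median bin over the 4 libraries, which kept 232851 of 261882 bins. This gave 41885874 possible pairs of the 2208530513 cis pairs of different bins in the matrices. Pairs were chosen by position and bin coverage and not by any difference between groups.

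The cells were primary Schwann cells, the glia of peripheral nerve, taken from rat sciatic nerve and grown with serum, forskolin and heregulin. Both groups were infected with a lentivirus at 2 viral units per cell, with polybrene, for 48 hours. Lenti-AS overexpressed the antisense RNA of the Egr2 promoter (2 libraries), and Lenti-GFP carried GFP from the backbone vector (2 libraries). The methods name a DsRed vector for the antisense RNA, so the fluorescent protein differed between the groups too, and its part cannot be told apart from that of the antisense RNA. Strain, sex and age of the animals are not given in the labels. Contact matrices hold no transcripts, so neither the Schwann cell label nor the overexpression could be checked here. Nothing in the labels says whether the 2 libraries of a group came from separate animals or cultures, and the p-values below measure only the spread between these samples. Where many values were tested at once, that spread was partly pooled over the other values of the same 4 libraries, which add no replicates.

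Contacts become rarer with distance along every chromosome, because a chromosome is a folded polymer. In mammalian cells cohesin extrudes loops that CTCF can halt, which makes contacts fall less steeply over the distances that loops span. The distance at which the log-log decay curve is shallowest is therefore read in the field as a measure of average loop size. At longer distances the curve also reflects the separation of active from inactive chromatin. Egr2 is a transcription factor that drives the myelination programme of Schwann cells, and the study asked whether its antisense RNA changes the folding of the genome.

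Lenti-GFP replicates 1 and 2 held 49839920 and 57725655 contacts in the window of 10 kb to 2 Mb, and Lenti-AS replicates 1 and 2 held 38559064 and 36528613. Both Lenti-AS libraries were shallower. The window held between 51.5% and 52.5% of all contacts of a library. Contacts within 1 bin, which are outside the window, made up 16.4% and 16.5% in Lenti-GFP and 17.3% and 16.9% in Lenti-AS. Trans contacts, between different chromosomes, made up 12.6% and 12.8% in Lenti-GFP and 13.0% in each Lenti-AS library. The groups thus also differed in depth, short contacts and trans contacts, and the part of these in the differences below was not tested, except that libraries were thinned to equal depth.

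Over all chromosomes, the decay was slightly steeper in Lenti-AS than in Lenti-GFP. The slope of log10 contacts per possible pair on log10 distance, over 18 log-spaced distance classes, was -1.1078 and -1.1047 for Lenti-GFP and -1.1121 and -1.1108 for Lenti-AS. The groups did not overlap. Their means were -1.1063 ± 0.0022 and -1.1114 ± 0.0010 (SD, n = 2), a difference of -0.0052 with a two-sided exact permutation p of 0.33, the smallest that 2 against 2 libraries allow. The difference was larger than the gap of 0.0032 between the Lenti-GFP libraries and that of 0.0014 between the Lenti-AS libraries. With the libraries thinned to equal depth the difference was -0.0053. This exact test cannot pass 0.05 with 2 against 2 libraries, so the differences of single values are set beside the gap between replicates.

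Between 50 and 500 kb, the range in which loops shape the curve, the decay was also steeper in Lenti-AS. The slope there was -0.9888 and -0.9856 in Lenti-GFP and -0.9938 and -0.9931 in Lenti-AS, again without overlap (difference -0.0062, exact permutation p = 0.33). Between 500 kb and 2 Mb the curve was steeper in all libraries, at -1.4484 and -1.4432 in Lenti-GFP and -1.4540 and -1.4462 in Lenti-AS. Here the groups overlapped, and the difference of -0.0043 was smaller than the gaps between replicates, 0.0052 for Lenti-GFP and 0.0078 for Lenti-AS (exact permutation p = 0.667).

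**Figure D1:**
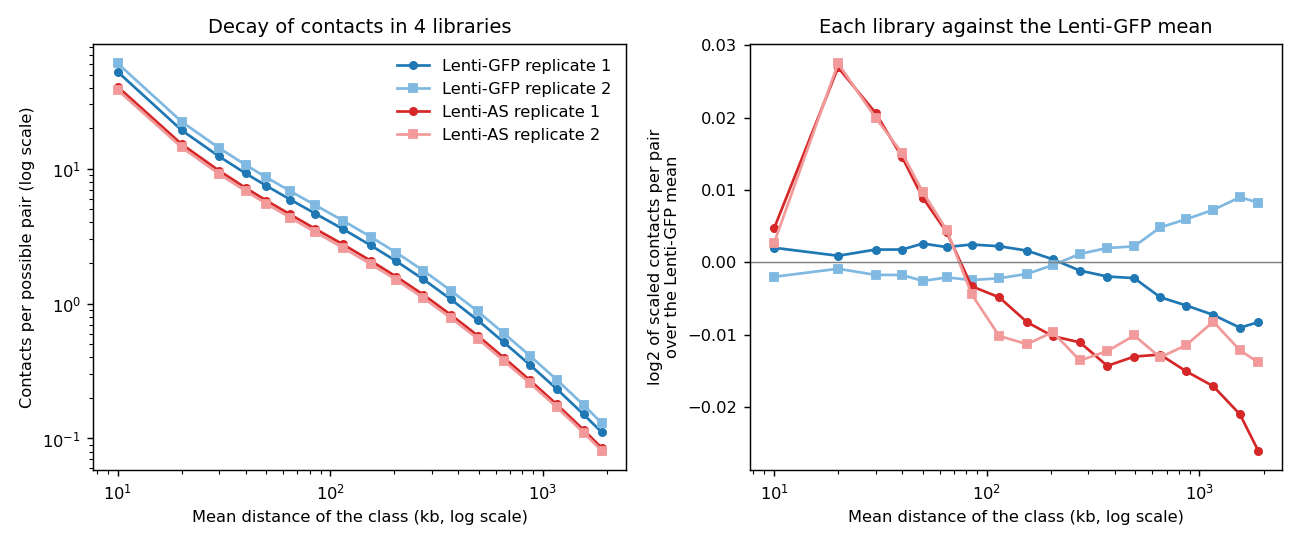
Left, contacts per possible pair of bins against distance in kb for the 4 libraries, both on log scales. Right, log2 of each library's contacts per pair, scaled to its window contacts, over the mean of the Lenti-GFP libraries, in which both Lenti-AS libraries lie above the Lenti-GFP libraries at 20 to 50 kb and below them from 100 kb on.

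Adjacent bins, 10 kb apart, held 52.4 and 60.5 contacts per pair for Lenti-GFP and 40.6 and 38.4 for Lenti-AS. At 1780 to 2000 kb the same libraries held 0.111, 0.130, 0.0849 and 0.0811 contacts per pair. These values follow the depth of the libraries, so they were divided by the window contacts and are given per 1000 pairs and 1000000 window contacts. On that scale adjacent bins held 1051 and 1048 in Lenti-GFP and 1053 and 1052 in Lenti-AS, and the difference of the means was 0.0037 on the log2 scale. The gap between the Lenti-GFP libraries was as wide, at 0.0040.

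The largest rise relative to the window total was at 20 kb, where the scaled contacts were 387.4 and 386.9 in Lenti-GFP and 394.5 and 394.6 in Lenti-AS. This is a log2 difference of 0.027, against gaps of 0.0018 within Lenti-GFP and 0.00057 within Lenti-AS. At 30, 40 and 50 kb the log2 difference was 0.020, 0.015 and 0.0093. At 80 to 90 kb, the class at the peak of the local slope, the scaled contacts were 93.4 and 93.1 in Lenti-GFP and 93.04 and 92.97 in Lenti-AS, a log2 difference of -0.0039. The sign of the difference changed just below this class, after 60 to 70 kb (0.0043), and at the crossing the differences were no larger than about the gap between the Lenti-GFP libraries, 0.0042 at 60 to 70 kb and 0.0049 at 80 to 90 kb.

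At longer distances scaled contacts were lower in Lenti-AS. From 140 to 2000 kb the log2 difference lay between -0.0098 and -0.020 in every class. None of these classes overlapped between the groups, but neither did any class at shorter distances, adjacent bins included. The lack of overlap therefore does not set the far classes apart. In the farthest class, 1780 to 2000 kb, the scaled contacts were 2.228 and 2.254 in Lenti-GFP and 2.201 and 2.220 in Lenti-AS. The log2 difference of -0.020 was close to the gap of 0.017 between the Lenti-GFP libraries there. At 1000 to 1330 and 1340 to 1770 kb the differences of -0.013 and -0.017 were smaller than the Lenti-GFP gaps of 0.015 and 0.018. The scaling makes a rise at one distance a fall at another, so only the shape of the curve was compared and not the number of contacts per cell.

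The same shift shows in the shares of window contacts. Contacts at 10 to 50 kb made up 45.23% and 45.11% in Lenti-GFP and 45.55% and 45.52% in Lenti-AS. Both Lenti-AS libraries were higher, by 0.366 percentage points between the means of 45.17% ± 0.079 and 45.54% ± 0.021 (SD, n = 2, exact permutation p = 0.33). Over 12 alternatives, among them leaving out 1 library, this difference lay between 0.231 and 0.422 points. Contacts at 500 kb to 2 Mb made up 16.75% and 16.90% in Lenti-GFP and 16.64% and 16.70% in Lenti-AS. They were lower in Lenti-AS by 0.161 percentage points (exact permutation p = 0.33), which is little more than the gap of 0.149 between the Lenti-GFP libraries. Counting error was widest in the shallowest library, Lenti-AS replicate 2, whose 95% Wilson interval for the near share spanned 45.506% to 45.539%. It covers counting error within 1 library only, and it is too narrow where read pairs are not independent molecules. A window contact spanned on average 253.8 ± 1.17 kb for Lenti-GFP against 251.6 ± 0.52 kb for Lenti-AS (SD, n = 2), and the median was 70 kb in every library.

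The local slope describes how fast contacts fall at each distance. It was shallowest at 84 and 86 kb for Lenti-GFP and at 88 and 89 kb for Lenti-AS. The peak lay at a slightly longer distance in Lenti-AS, at 88.5 ± 0.71 kb against 85.0 ± 1.41 kb (SD, n = 2), a difference of 3.5 kb (exact permutation p = 0.33) where the Lenti-GFP libraries were 2 kb apart. Bins are 10 kb wide, so this shift is well under 1 bin, and it comes from the fit over many distances. Over 15 alternatives, among them leaving out 1 library, the shift lay between 2 and 4.8 kb. At its smallest it was no larger than the gap between the Lenti-GFP libraries.

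The height of the curve differed more clearly than its position. At the peak the local slope was -0.9020 and -0.9012 in Lenti-GFP and -0.9126 and -0.9155 in Lenti-AS, so the shallow part of the curve was less shallow in Lenti-AS. The difference of -0.0125 (exact permutation p = 0.33) was larger than the gaps within a group, 0.00080 and 0.0029. Along the curve, the local slope at 20 kb was shallower in Lenti-AS by 0.0044. It was steeper in Lenti-AS by 0.011 at 30 kb, 0.015 at 50 kb, 0.010 at 100 kb and 0.0033 at 200 kb. Between 300 kb and 1 Mb the libraries of the groups overlapped, and at 1.5 Mb the difference was -0.0080 without overlap. The cause of the lower shallow part was not tested.

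**Figure D2:**
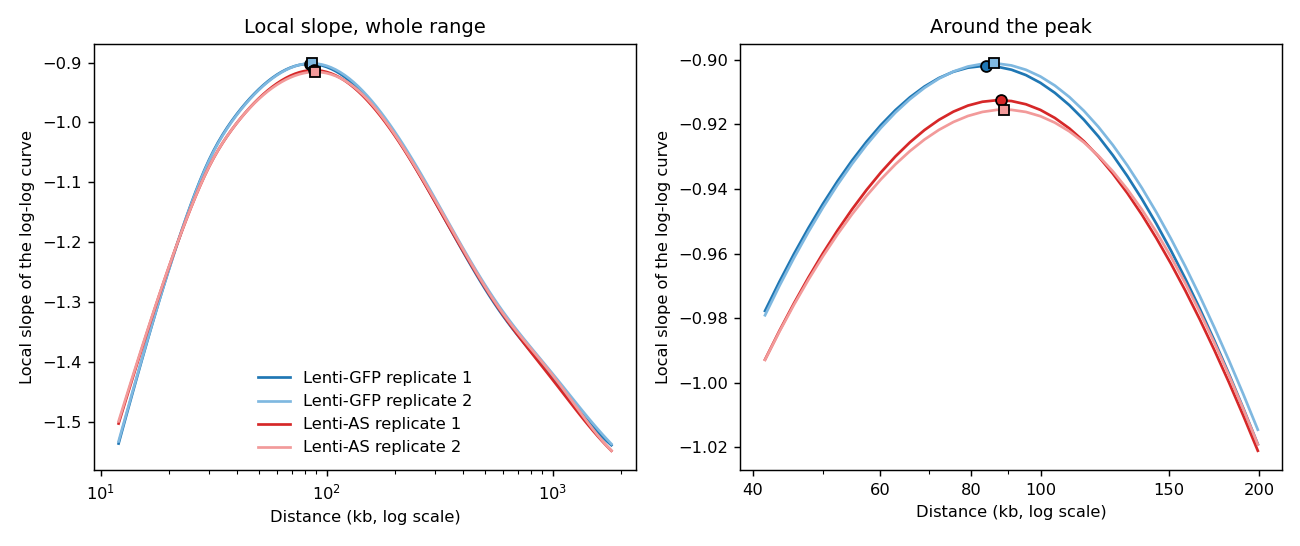
Local slope of the log-log decay curve against distance in kb (log scale) in the 4 libraries, over the whole range (left) and around the peak (right), with the peak of each library as a symbol. The Lenti-GFP peaks lie at 84 and 86 kb, the Lenti-AS peaks at 88 and 89 kb, and the Lenti-AS curves run lower from 40 to 100 kb.

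Chromosomes differed far more from each other than the groups did. The mean slope of the 4 libraries from 10 kb to 2 Mb ran from -1.2247 on chromosome 10 to -1.0763 on chromosome 16, and its SD over the 20 chromosomes was 0.0373. Replicates gave almost the same order of chromosomes, with r = 0.9997 between the Lenti-GFP libraries and r = 0.9994 between the Lenti-AS libraries over 20 chromosomes. The chromosomes of a library share that library and are no replicates, so these are descriptions.

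Chromosomes 10 and 12 stood apart with the steepest decay. On chromosome 10 the slope was -1.2206 and -1.2168 in Lenti-GFP and -1.2307 and -1.2306 in Lenti-AS. On chromosome 12 it was -1.1881 and -1.1875 in Lenti-GFP and -1.2053 and -1.2041 in Lenti-AS. Chromosome 8 followed, with -1.1330 and -1.1303 in Lenti-GFP and -1.1412 and -1.1392 in Lenti-AS. In all 3 the groups did not overlap, and these chromosomes also had the largest differences between the groups, at -0.0120, -0.0169 and -0.0085.

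The shallowest decay was found on chromosomes 16, 2 and 6. Chromosome 16 had slopes of -1.0752 and -1.0734 in Lenti-GFP and -1.0788 and -1.0779 in Lenti-AS, chromosome 2 had a mean slope of -1.0813, and chromosome 6 had -1.0847. Chromosomes 2 and 6 differed by about as much as the libraries of one group did. Chromosome 20, which carries Egr2, was not at either end, with -1.1085 and -1.1068 in Lenti-GFP and -1.1132 and -1.1114 in Lenti-AS.

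The slope was steeper in Lenti-AS on 20 of 20 chromosomes, and the groups did not overlap on 19. The difference ran from -0.0169 on chromosome 12 to -0.0021 on chromosome 11, with a median of -0.0047. The share of contacts at 10 to 50 kb was higher in Lenti-AS on all 20 chromosomes without overlap, by 0.171 points on chromosome 11 to 0.808 points on chromosome 12. The share at 500 kb to 2 Mb was lower on all 20, with 15 that did not overlap. On chromosome 12, contacts at 10 to 50 kb made up 49.27% and 49.21% in Lenti-GFP and 49.97% and 50.12% in Lenti-AS, the highest share of any numbered chromosome.

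The peak of the local slope also differed between chromosomes. It was longest on chromosome 17, at 112 and 110 kb for Lenti-GFP against 110 and 116 kb for Lenti-AS, with overlap. Chromosome 2 followed with 94 and 95 kb for Lenti-GFP against 102 and 107 kb for Lenti-AS, the largest shift between the groups (10 kb). Chromosomes 4 and 14 were tied next, with the same 4 values, 95 and 99 kb for Lenti-GFP against 102 and 101 kb for Lenti-AS.

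The shortest peaks were on chromosomes 12, 10 and 19. On chromosome 12 the peak lay at 60 and 62 kb for Lenti-GFP and at 58 and 57 kb for Lenti-AS, so here it was shorter in Lenti-AS. On chromosome 10 it lay at 63 and 60 kb against 62 and 59 kb, with overlap, and on chromosome 19 at 71 and 71 kb against 70 and 68 kb. Chromosome 20 had peaks at 76 and 89 kb for Lenti-GFP against 89 and 87 kb for Lenti-AS, so the Lenti-GFP replicates were farther apart than the group means, and the groups overlapped. Over all 20, the peak was longer in Lenti-AS on 16 and shorter on 4, and the groups did not overlap on 12, of which 10 were longer and 2 shorter. The whole-genome shift of 3.5 kb was therefore not shared by every chromosome.

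**Figure D3:**
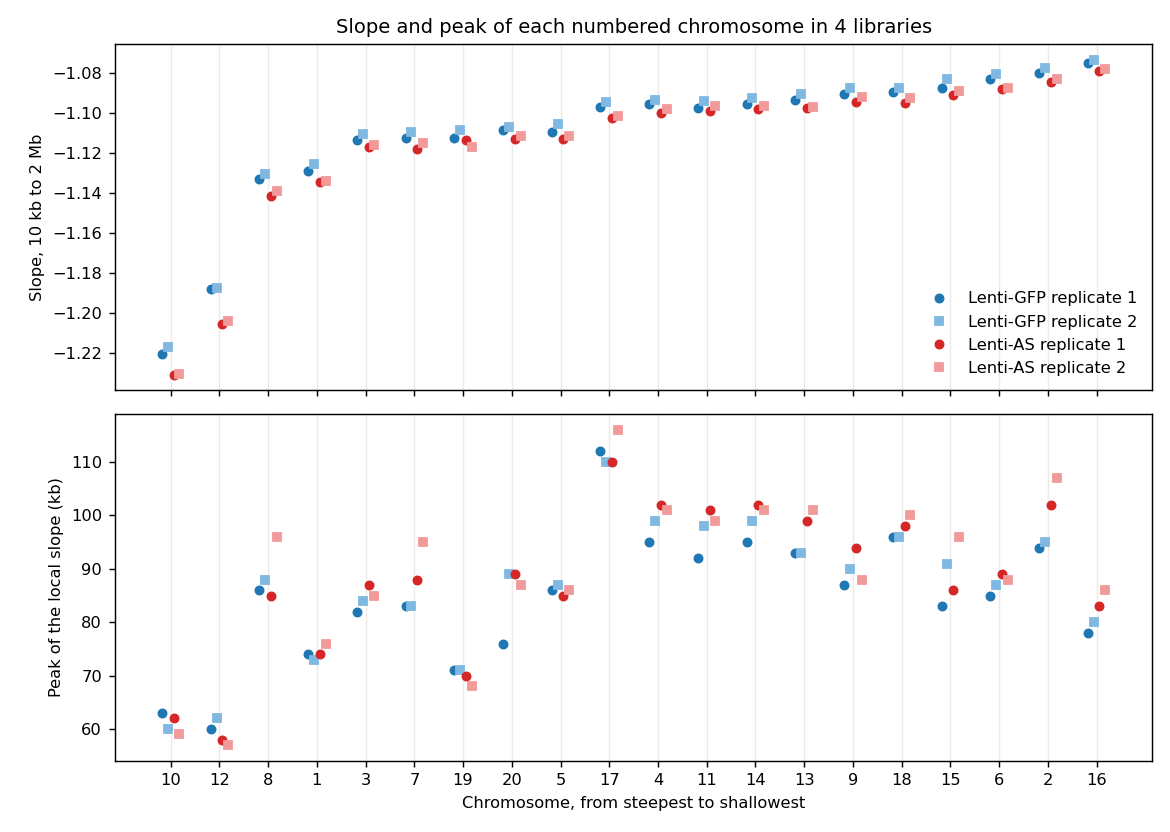
Slope from 10 kb to 2 Mb (top) and peak of the local slope in kb (bottom) for the 20 numbered chromosomes, ordered from steepest to shallowest, with 1 symbol per library. The Lenti-AS symbols lie below the Lenti-GFP symbols in the top panel on 19 chromosomes without overlap, and the peaks run from 57 kb on chromosome 12 to 116 kb on chromosome 17.

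Chromosome length bore little relation to the slope (r = 0.20 with log length over 20 chromosomes), and neither did the share of trans contacts (r = -0.30). The slope at the peak had r = 0.47 with log length and r = -0.62 with the share of trans contacts. Chromosome X was outside the numbered set and had the longest peak of all, between 132 and 144 kb in the 4 libraries, with a slope of -1.0603.

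To test the shape of the decay on each chromosome, the counts of every chromosome and distance class were compared between the groups, relative to the window contacts of the same chromosome and library. Of 360 such counts, edgeR's quasi-likelihood test called 59 higher in Lenti-AS (16.4% of those tested) and 78 lower (21.7%) at a Benjamini-Hochberg adjusted p below 0.05. This fit had its dispersion set to 0, a choice made after results had been seen, and with the dispersion estimated by edgeR 58 were called higher and 69 lower. Instead of 137 in all, 75 were called without Lenti-GFP replicate 2, 51 without Lenti-AS replicate 1 and 52 without Lenti-AS replicate 2, and TMM factors gave 58 higher and 42 lower. In the main test the calls split by distance: all 59 higher calls lay at 10 to 70 kb and all 78 lower calls at 80 kb or more. Without overlap between the groups were 253 counts (70.3%). The changes were small, and between -0.088 and 0.035 on the log2 scale. Since the counts are shares of a chromosome's contacts, higher near shares and lower far shares go together by construction.

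At 20 kb the share was higher in Lenti-AS on 20 of 20 chromosomes without overlap, with a median log2 difference of 0.029, and 19 passed the test. Chromosome 20, at 0.013, did not pass (edgeR adjusted p = 0.107). At 30 kb and at 40 kb the share was again higher on all 20 chromosomes (medians 0.021 and 0.015), of which 18 and 11 passed. For adjacent bins it was higher on 15 chromosomes with a median of 0.0031, and 5 passed. In every class from 100 kb on, the share was lower in Lenti-AS on all chromosomes or on all but 1, and between 4 and 10 chromosomes passed. The number that passed was 10 at both 320 to 420 kb and 1340 to 1770 kb, where the medians were -0.013 and -0.018.

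The 3 largest rises past the threshold were all at 20 kb, on chromosomes 8, 10 and 15. On chromosome 8, pairs 20 kb apart made up 8.751% and 8.732% of the chromosome's window contacts in Lenti-GFP and 8.952% and 8.961% in Lenti-AS. The log2 fold change was 0.035 (edgeR adjusted p = 9.49e-06). It was 0.035 on chromosome 10 (edgeR adjusted p = 1.19e-05) and 0.033 on chromosome 15 (edgeR adjusted p = 1.63e-05), again without overlap between the groups. With offsets from the total of the library in place of the chromosome, the value of chromosome 10 dropped to 0.0064 (edgeR adjusted p = 0.622). That offset no longer removes differences in the contacts of the whole chromosome.

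The 3 largest falls were all on chromosome 12, beyond 1 Mb. Pairs 1000 to 1330 kb apart made up 2.487% and 2.493% of its window contacts in Lenti-GFP and 2.363% and 2.356% in Lenti-AS. This is a log2 fold change of -0.078 (edgeR adjusted p = 4.90e-05), from 22065, 24633, 14971 and 13860 contacts. At 1340 to 1770 kb the change was -0.072 (edgeR adjusted p = 0.000275), and at 1780 to 2000 kb it was -0.088 (edgeR adjusted p = 0.000394). The last of these rested on 4405 to 7788 contacts per library and lost its call without either Lenti-GFP library (edgeR adjusted p = 0.0739 and 0.125), at almost the same size. With the offset from the library total the 3 values on chromosome 12 were -0.177, -0.171 and -0.188. All 3 moved down by about the same amount. That offset takes in differences in the contacts of the whole chromosome, so these values do not show a stronger fall at far distances.

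Chromosome 10 had the most calls, with 5 classes higher and 10 lower of 18. Chromosome 8 had 5 higher and 9 lower, and chromosome 12 had 5 higher and 8 lower. These are also the 3 chromosomes with the steepest slopes. Chromosome 11 had 1 call, higher at 20 kb, and chromosome 9 had 3 higher and 0 lower. Its values from 80 kb on were all below 0, between -0.023 and -0.00070, without passing the threshold.

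**Figure D4:**
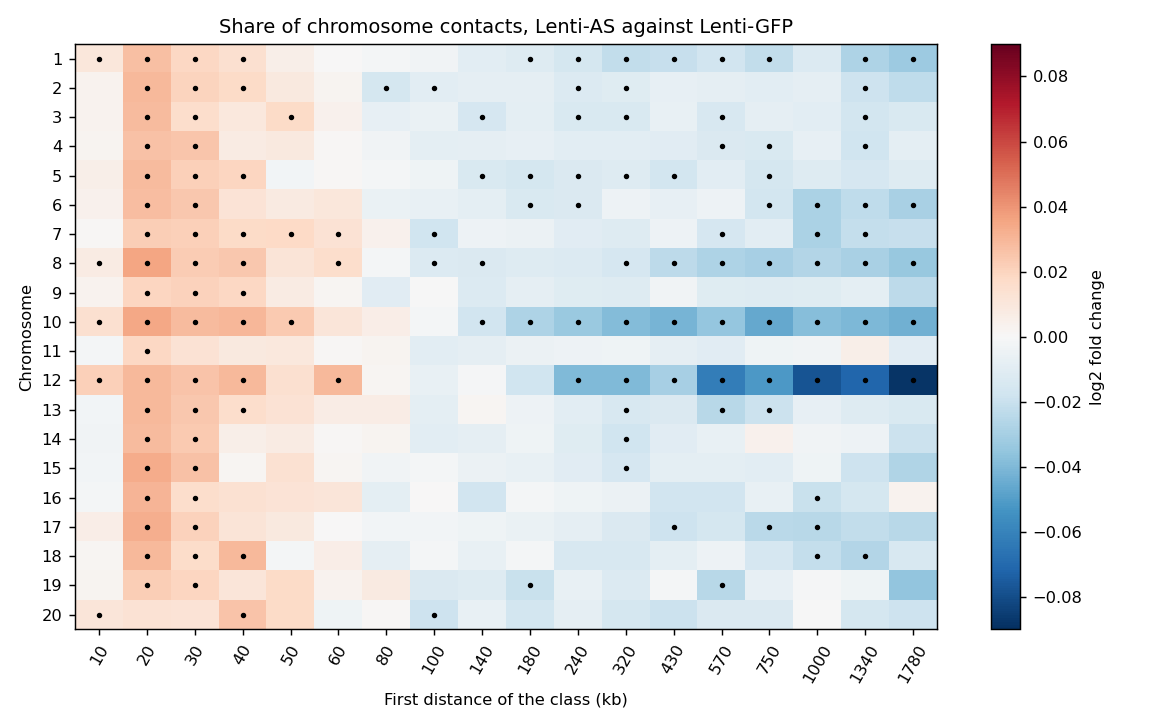
Log2 fold change of the share of a chromosome's window contacts, Lenti-AS against Lenti-GFP, for 20 chromosomes and 18 distance classes, each named by its first distance in kb. Dots mark edgeR adjusted p below 0.05, and the called values are above 0 at up to 70 kb and below 0 from 80 kb on, with the lowest value, -0.088, on chromosome 12.

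Within chromosomes, the decay varied over 5 Mb windows. The slope from 50 kb to 2 Mb of 529 windows had an SD of 0.183 and a median of -1.148, and windows ranked almost alike in replicates (r = 0.9989 for the Lenti-GFP pair and 0.9988 for the Lenti-AS pair, over 529 windows). All positions are those of the deposited bins (rat build rn6 per the submitters' notes, counted from 1). No annotation of that build was used, so windows are given by position alone.

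The steepest window was chr10:110000001-112630000 at the end of chromosome 10, with slopes of -1.687 and -1.777 in Lenti-GFP and -1.720 and -1.743 in Lenti-AS. It held only 115 kept bins, and its Lenti-GFP libraries differed more than the groups. chr5:150000001-155000000 followed with a mean of -1.648 and chr10:45000001-50000000 with -1.645. The shallowest was chr7:5000001-10000000 with a mean of -0.757, then chr2:265000001-266440000 with -0.773 and chr9:120000001-122100000 with -0.807. These last 2 are chromosome ends, and in none of the 3 was a difference between the groups called.

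Between the groups, limma called 115 windows steeper in Lenti-AS (21.7% of the 529 tested) and 1 shallower (0.189%) at an adjusted p below 0.05. In 343 windows (64.8%) the groups did not overlap, 302 of them steeper and 41 shallower in Lenti-AS. Over all 529, 427 were steeper and 102 shallower, with a median difference of -0.0080. The median gap between replicates was 0.0050 in Lenti-GFP and 0.0056 in Lenti-AS. Without Lenti-GFP replicate 1 or replicate 2 limma called 1 window each, and without Lenti-AS replicate 1 or 2 it called 68 or 61. In these fits the spread comes from the group that keeps 2 libraries, and the lone library is assumed to vary like it. After the median of each library was removed, limma called 13 windows steeper and 1 shallower, and with 2 Mb windows it called 0 of 1269 (275 at an unadjusted p below 0.05).

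The lowest p belonged to chr2:160000001-165000000, with slopes of -1.253 and -1.251 in Lenti-GFP and -1.354 in both Lenti-AS libraries. The difference of -0.102 ± 0.0048 (SE) was the largest of all windows (limma adjusted p = 4.25e-07), though only 120 of the bins in this window were kept. Next came chr5:170000001-173710000, the end of chromosome 5, with -1.331 and -1.344 in Lenti-GFP and -1.390 and -1.391 in Lenti-AS (limma adjusted p = 0.000640). The third was chr14:5000001-10000000, with -1.346 and -1.351 against -1.388 and -1.385 (limma adjusted p = 0.00226). With 1 library left out the difference on chromosome 2 lay between -0.103 and -0.101. It lay between -0.060 and -0.046 on chromosome 5 and between -0.041 and -0.036 on chromosome 14. The windows on chromosomes 5 and 14 missed the threshold without either Lenti-GFP library, at these similar sizes. With slopes from 10 kb the difference on chromosome 2 was -0.057 (limma adjusted p = 1.27e-05), and under the stricter bin filter too few of its bins were kept for a test.

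The window called shallower was chr7:1-5000000, next to the shallowest window of the genome. Its slopes were -1.339 and -1.319 in Lenti-GFP and -1.279 and -1.295 in Lenti-AS, a difference of 0.042 (limma adjusted p = 0.00986), from 202 kept bins. Under 9 alternatives this window had differences between 0.019 and 0.052. It too missed the threshold without either Lenti-GFP library (limma adjusted p = 0.198 and 0.226). The next lowest p values in this direction belonged to chr2:210000001-215000000 and chr9:100000001-105000000, with differences of 0.0137 and 0.0140 that were not called (limma adjusted p = 0.107 in both).

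The decay was then set against the large-scale division of the chromosomes. The first eigenvector of contacts over 2 Mb apart, which do not enter the decay, separates chromatin that pairs preferentially with its own kind. Its sign was set so that 1 side of every chromosome paired with the same side of the others. The top is the side with more trans contacts over all chromosomes together (median 361 per bin in the top 20% of bins, 292 in the bottom 20%). Bins of the top 20% also held more cis contacts (median 2224 against 1771), so the sides differed in coverage and not in trans contacts alone. The correlation of the eigenvector with trans contacts was weak on many chromosomes and below 0 on chromosomes 10, 12, 17, 19 and 20 (between -0.156 and -0.022). The sides were not named active or inactive, because no measure of activity was used here.

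The decay differed strongly between these sides, in every library. Among pairs with both bins in the top 20% the slope from 10 kb to 2 Mb was -1.2274 and -1.2268 in Lenti-GFP and -1.2442 and -1.2443 in Lenti-AS. Among pairs in the bottom 20% it was -0.9227 and -0.9215 in Lenti-GFP and -0.9181 and -0.9169 in Lenti-AS. The local slope was shallowest near 60 kb in the top 20% (59 to 61 kb in the 4 libraries) and near 230 kb in the bottom 20% (227 to 233 kb). Between 500 kb and 2 Mb the slope was -1.595 in the top 20% and -0.961 in the bottom 20%, as means of the 4 libraries. Pairs that cross between the sides enter neither value.

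The slope from 10 kb to 2 Mb differed between the groups in opposite directions on the 2 sides. In the top 20% the slope was steeper in Lenti-AS by 0.0171 and in the bottom 20% it was shallower by 0.0046, without overlap between the groups on either side. Top minus bottom was -0.3047 and -0.3053 in Lenti-GFP and -0.3261 and -0.3274 in Lenti-AS, so the sides were farther apart in both Lenti-AS libraries (difference -0.0217, exact permutation p = 0.33). With each library balanced by iterative correction the top value was -0.0176 and the bottom value shrank to 0.00078. Over 50 to 500 kb the bottom 20% differed by only 0.0010, and its slope over 500 kb to 2 Mb and its local slope at the peak overlapped between the groups. The balanced alternative was chosen after the data were seen, and the shift in the bottom 20% thus depends on the balancing.

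In the top 20%, the share of contacts 20 kb apart was 10.61% in each Lenti-GFP library and 10.87% and 10.88% in Lenti-AS, a log2 difference of 0.036. From there the difference dropped class by class to -0.087 at 1780 to 2000 kb, where the shares were 0.281% and 0.279% in Lenti-GFP and 0.264% in both Lenti-AS libraries. None of the 18 classes overlapped between the groups, and over all bins none did either. In the bottom 20% the groups overlapped only at 40, 100 to 130 and 320 to 420 kb. In the bottom 20%, adjacent bins held a lower share in Lenti-AS, at 26.02% and 25.97% against 26.43% and 26.41% (log2 difference -0.023). Between 20 and 420 kb the bottom 20% differed by at most 0.0082. From 570 kb on its shares were higher in Lenti-AS, by 0.017 to 0.031. These are shares within each side. Scaled to the window contacts of the library instead, contacts at 500 kb to 2 Mb in the bottom 20% were 7.44 and 7.70 per 1000 pairs for Lenti-GFP against 7.46 and 7.64 for Lenti-AS, with overlap. Adjacent bins there were lower in Lenti-AS without overlap, with 735.2 and 758.3 for Lenti-GFP against 714.6 and 727.3 for Lenti-AS. The Lenti-GFP libraries were almost as far apart as the group means of 746.8 and 721.0. In the top 20% the scaled far contacts were lower in Lenti-AS without overlap, at 5.19 against 4.95 (group means), and adjacent bins overlapped, with 1368 and 1336 for Lenti-GFP against 1378 and 1367 for Lenti-AS. On that scale the higher share of adjacent bins in the top 20% is thus not seen as a difference beyond the replicates.

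By their medians, the windows, which hold pairs of both sides, were steeper in Lenti-AS at every level of the eigenvector, with a size that grew towards the top. When the 529 windows were ordered by their mean eigenvector and divided into 5 equal groups, the median slope went from -0.985 in the lowest group to -1.076, -1.133, -1.269 and -1.374 in the highest (r = -0.74 between slope and eigenvector over 529 windows). The median difference between Lenti-AS and Lenti-GFP went from -0.0027 in the lowest, where 69 of 106 windows were steeper in Lenti-AS, to -0.0147 in the highest. Windows called steeper in Lenti-AS numbered 2, 13, 16, 35 and 49 from the lowest to the highest group, or 1.89% to 46.2% of a group against 21.7% of all windows. These counts rest on all 4 libraries, since 1 window was called without either Lenti-GFP library, and 14 were called after the median of each library was removed. The difference also moved with the slope itself (r = 0.45 over 529 windows), and whether the shift is larger relative to the slope was not tested. Over the 20 chromosomes, the share of bins in the top 20% had r = -0.32 with the slope and -0.50 with the peak distance.

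**Figure D5:**
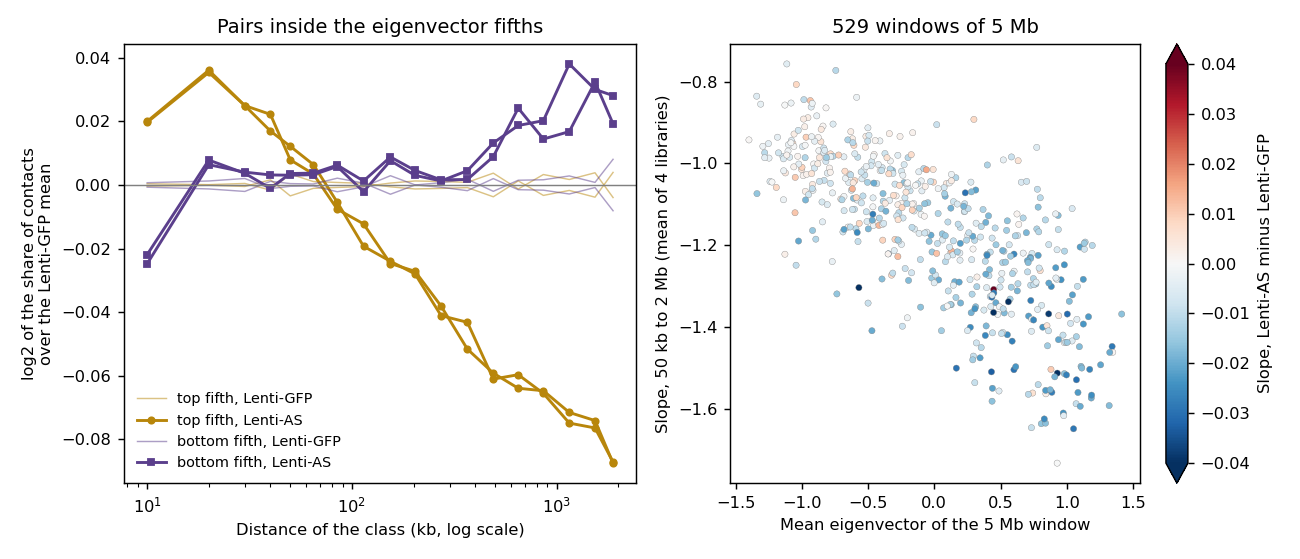
Left, log2 of the share of contacts in each distance class over the Lenti-GFP mean, for pairs inside the top 20% and the bottom 20% of bins by eigenvector, 1 line per library, with distance in kb on a log scale. Right, slope from 50 kb to 2 Mb of 529 windows of 5 Mb against their mean eigenvector, coloured by Lenti-AS minus Lenti-GFP. In the top 20% the Lenti-AS lines fall from 0.036 at 20 kb to -0.087 in the farthest class, while the bottom 20% end above 0.

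Near chromosome ends the decay was shallower than elsewhere over 10 kb to 2 Mb but steeper over 50 to 500 kb (-1.0035 against -0.9896, means of 4 libraries), and the share at 10 to 50 kb was higher (47.6% against 45.4%). Pairs within 5 Mb of a chromosome end had a mean slope of -1.0904 and the rest had -1.1097. Lenti-AS was steeper by 0.0046 near the ends and by 0.0051 elsewhere, without overlap of the groups in either, and the peak lay at 80 and 86 kb in Lenti-GFP and 83 and 85 kb in Lenti-AS near the ends, with overlap.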

How the data were processed

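Hi-C libraries were made with the Arima kit. Per the labels and methods, the authors made the raw matrices with HiC-Pro, whose deposited values are raw counts, 1 for each bin pair at 10 kb. The authors also deposited matrices merged per group and balanced by iterative correction (ICE), whose values are a balanced signal. Those at 10 kb were used as an alternative. The submitters' notes name rn6. The Hi-C aligner and the version of HiC-Pro are not given in the sources used here. The libraries held 70488877 to 110770015 contacts. The bin tables gave the positions.

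The members and lists were chosen with earlier results of these data known. Contacts and possible pairs were summed over 18 classes (8 per decade). A straight line through the class values, with equal weights, gave the slope. The local slope came from a quadratic fit over single distances, each weighted by the contacts of the library there and by a Gaussian (0.15 decades). Its peak was sought between 40 and 600 kb. Values of single libraries were compared with an exact permutation test, two-sided, over 2 against 2 libraries (smallest p 0.33). Counts per chromosome and class were tested with edgeR 4.0.16, group as the only term, with the log of the chromosome's window contacts as offset. After results had been seen the dispersion was set to 0, which leaves the spread to the quasi-likelihood. In 360 counts simulated from the real means and the spread of that fit, it recovered 53.3% of changes of 0.02 and 100% of changes of 0.05 on the log2 scale with 0 false calls, and estimated dispersion recovered the same shares with 2 false calls. All simulated counts had the same dispersion, taken from the fit with dispersion 0, so the false calls cannot decide between these fits. In most distance classes the median real change was below 0.02 in size, and recovery of such changes was not simulated. Slopes of 5 Mb windows with at least 100 kept bins were tested with limma 3.58.1. In 529 simulated windows that shared 1 noise SD (0.0052) it recovered all shifts of 0.05 and made 5 false calls. The median difference of the real windows was -0.0080, so this does not show how well shifts of that size are recovered. Both edgeR and limma took part of the spread of each value from the other values of the same libraries. The sign of the eigenvector was linked over chromosomes through trans contacts after the planned sign had proved weak, which turned 5 chromosomes. Named were the distance classes, chromosomes, counts and windows at the ends of each ranking, and chromosome 20. The tables were computed with Python 3.11.15 and numpy. Loci and genes were not placed in windows, because no annotation of rn6 was used here. Alternatives were other bin filters, balancing, equal depth, other classes and windows, DESeq2 1.42.0 and leaving out each library.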

Additional observations from a re-analysis of the deposited data

Results flagged for a closer look

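Pairs inside the top 20% and the bottom 20% of bins by eigenvector were flagged because every Lenti-AS library moved one way on the first and the other way on the second. The slope from 10 kb to 2 Mb differed between Lenti-AS and Lenti-GFP by -0.0171 in the top 20% and by 0.00463 in the bottom 20%. With each library balanced, an alternative chosen after the data were seen, the bottom value was 0.00078. The share of contacts at 10 to 50 kb differed by 0.881 percentage points in the top 20% and by -0.351 in the bottom 20%. The share at 500 kb to 2 Mb differed by -0.333 percentage points in the top 20% and by 0.269 in the bottom 20%. For the slope, top minus bottom gave an exact permutation p of 0.33, the smallest this design allows, and the shares gave the same p. Scaled to the window contacts of the library rather than of the side, the far contacts of the bottom 20% overlapped between the groups (difference -0.021 per 1000 pairs and 1000000 window contacts). The cause was not tested.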

How the results depend on the processing

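The 7 single values (3 slopes, the peak distance, the slope at the peak and 2 shares) kept their direction under the 62 alternatives that kept all libraries and used no block. A replicate block leaves these values as they are in a balanced design, and leaving out 1 library cannot turn a value whose groups do not overlap. Leaving out 1 library at a time moved the slope from 10 kb to 2 Mb between -0.0068 and -0.0036, the slope from 500 kb to 2 Mb between -0.0082 and -0.00039, the peak shift between 2.5 and 4.5 kb, and the share at 500 kb to 2 Mb between -0.236 and -0.087 points. The 20 chromosomes stayed steeper in Lenti-AS with each library balanced, with other bin filters and at equal depth, and the number with a longer peak was 14 when balanced. Of the counts by chromosome and distance, 51 to 134 were called with 1 library left out (75 without Lenti-GFP replicate 2, 51 and 52 without Lenti-AS replicates 1 and 2, against 137 with all). TMM factors gave 58 higher and 42 lower calls, DESeq2 48 and 51, and estimated dispersion, an alternative added after the data were seen, 127 calls, of which 125 were among the 137. Windows with a changed slope were 0 of 1269 at 2 Mb (limma, 275 at an unadjusted p below 0.05), 62 at 10 Mb, 212 with slopes from 10 kb, 14 (13 steeper and 1 shallower) after the median of each library was removed, and 1 to 68 with 1 library left out. The windows on chromosomes 5, 14 and 7 lost their call without either Lenti-GFP library, at differences of the same sign. With 1 library left out the spread comes from the group that keeps 2, so such calls say little about stability. With the replicate block, 185 counts and 124 windows were called. The numbers pair only 2 libraries per group (r = 0.28 between their deviations over 360 counts and 0.12 over 529 windows) and were not taken as pairs. The cause of these changes was not tested. The farthest class and windows with few kept bins rest on fewer contacts, so their relative counting error is larger.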
